A study of Mus musculus with 20 samples.

Results

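The genes described here are 10 precursors of secreted peptides: proenkephalin (Penk), prodynorphin (Pdyn), the tachykinin precursors Tac1 and Tac2, Adcyap1, neurotensin (Nts), Crh, Cartpt, and the granins Scg2 and Vgf. They were taken by symbol from the 25190 genes of the mouse hippocampal count table, and all 10 were present with at least 4 counts in every library. Bulk RNA sequencing was performed on 20 libraries, 5 in each of 4 groups, from the hippocampus of wild-type male C57BL/6JOlaHsd mice aged 4 months, with tissue taken 24 hours after the last behavioural test. All mice carried cannulas for bilateral infusion into the dorsal hippocampus. The Vehicle group received artificial cerebrospinal fluid and the Control group received small RNAs (sRNAs) pooled from the human hippocampus of control individuals. Mice of the Pool 1 and Pool 2 groups received sRNAs pooled from separate cohorts of patients with schizophrenia. Each sRNA group rested on a single pooled preparation, so the libraries of a group do not sample separate preparations. The sample labels name hippocampal tissue and the design text names its CA1 field.

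Neuropeptides are cut from larger precursor proteins by prohormone convertases and trimming enzymes inside dense core vesicles, and are released upon sustained firing to act on G protein-coupled receptors. Granins such as secretogranin II (Scg2) are packed into the same vesicles, help to form them and are themselves cut into active peptides. In the hippocampus different peptides mark different cells: dynorphin is stored in the mossy fibres of dentate granule cells, whereas somatostatin, neuropeptide Y and the Tac1 product substance P are found in classes of inhibitory interneuron.

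Several peptide genes respond to cyclic AMP through the cyclic AMP response element, the binding site of CREB, so their promoters were read for its letters. RefSeq promoters on GRCm38.p6, running from 250 bases before to 50 bases after the annotated start, were given for 7 of the 10 genes (Pdyn, Tac1, Tac2, Adcyap1, Nts, Cartpt and Scg2). The full palindrome TGACGTCA, which reads the same on both strands, was present in the promoters of Scg2 and Cartpt and in 1.79% of all 32851 promoters. A short form, TGACG or CGTCA, which is also contained in the palindrome, was present in the promoters of 5 of the 7 genes and in 20.8% of all promoters. The stretches around the full sites and around the short forms in Adcyap1 and Nts are shown because these genes include the least variable and the most variable of the set, with the matching letters in capitals.
Scg2, chr1:79440076-79440105, minus strand: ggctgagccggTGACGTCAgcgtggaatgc
Cartpt, chr13:99900777-99900806, minus strand: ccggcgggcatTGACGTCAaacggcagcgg
Adcyap1, chr17:93198915-93198941, plus strand: gactaggatgcTGACGtcttttactga
Nts, chr10:102490569-102490595, minus strand: ttagggaagatCGTCActttccatcaa
The Scg2 and Cartpt sites lay 68 and 112 bases before the RefSeq start, in stretches that the GENCODE M21 annotation gives as exon and UTR of these genes. No GENCODE gene covered the Adcyap1 and Nts stretches. No binding was measured in this study, and a match of letters says nothing about use of the site.

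Library totals ran from 20588280 to 25543939 counts, so that a floor of 3 counts corresponded to 0.117 to 0.146 CPM (counts scaled to library size). Within groups, the counts of each of the 40 pairs of libraries differed by more than sampling alone allows, with a ratio of chi-square to degrees of freedom no smaller than 7.59. Markers of neurons and of CA1, CA3 and dentate granule cells were detected in every group. Markers of other tissue and cell types also varied. The summed level of 6 genes of the choroid plexus, which lies beside the hippocampus, ran from 91.8 to 8971 CPM and was highest in Vehicle replicate 4. The sum of 7 markers of microglia, which reside in the hippocampus, reached 1083 CPM in Pool 2 replicate 1 against 367 to 570 CPM in the other 19 libraries. In bulk tissue, fewer cells of a type and less RNA per cell cannot be told apart.

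Levels of the 10 genes spanned about 2 orders of magnitude (plot of length-scaled levels). Per kilobase of exon, Scg2 was highest, with a mean of 84.4 CPM per kb over the 20 libraries, followed by Vgf with 46.7 and Penk with 27.0 CPM per kb. These steps held in 20 of 20 libraries. Pdyn came next with 4.83 CPM per kb, below Penk in all 20 libraries and above Tac2 in 19 of 20. The other 6 genes had means of 2.25 (Tac2), 1.90 (Tac1), 1.80 (Nts), 1.16 (Cartpt), 1.02 (Crh) and 0.756 (Adcyap1) CPM per kb. Neighbours among these did not keep their order, each step holding in only 8 to 13 of 20 libraries. Lengths were the merged exons of all GENCODE M21 transcripts of a gene, 3399 bases for Tac1 and 1378 for Tac2. The order depends on that choice: without scaling by length, Tac1 had a higher mean CPM than Tac2 in every group. The spread was as uneven as the level. Scg2 varied 1.36-fold between its lowest and highest library, Vgf 1.81-fold and Penk 2.28-fold, whereas Nts varied 50.2-fold. The SD of log2 CPM within groups was 0.15 for Scg2, at the 44.0 percentile of genes of like level, and 1.59 for Nts, at the 99.7 percentile. Pdyn and Penk were also variable for their level, at the 95.2 and 93.2 percentiles.

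**Figure D1:**
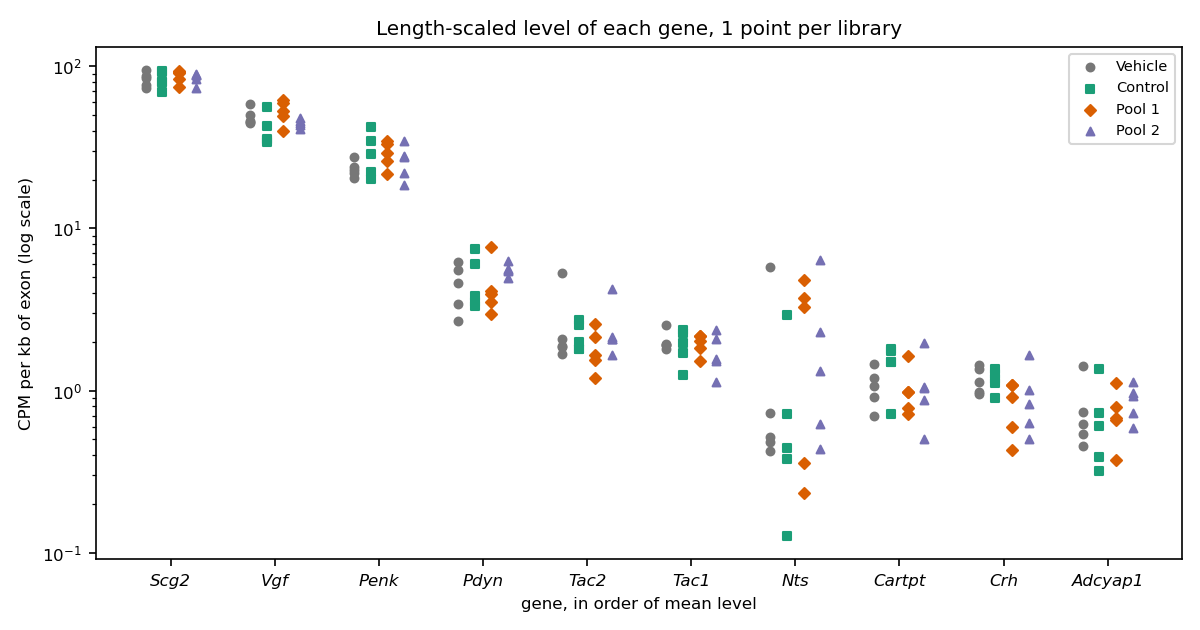
Level of each gene in CPM per kilobase of exon on a logarithmic axis, with 1 point per library and the groups side by side. Scg2, Vgf and Penk stand above the rest in every library, and Nts spreads from 0.127 to 6.402 CPM per kb.

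The main question of the design was whether sRNAs from patients change expression relative to sRNAs from controls. A gene was called where its log2 fold change was 0.3 or more in size with an unadjusted p below 0.05. The only call among the 10 genes in any comparison was a higher level of Vgf in Pool 1 than in Control mice. In Pool 1 against Control, 1 gene was called higher and 0 lower, against 1.48% of all genes called higher and 1.99% called lower. For Pool 2 against Control, edgeR called 0 of the 10 genes, against a background of 5.2% higher and 1.01% lower. Control against Vehicle gave 0 calls, against 1.7% and 3.41%, and Pool 2 against Pool 1 gave 0 calls, against 5.66% and 1.16%. DESeq2 made the same single call. Calls of other member differences, given below for fits that left out libraries, were each made in only 1 or 2 of 28 alternatives. At an unadjusted p under 0.05 without the fold threshold, 1 gene passed in Pool 1 against Control, 0 in Pool 2 against Control, 1 (Vgf, lower) in Control against Vehicle and 0 in Pool 2 against Pool 1. The call rule is a lenient one. After Benjamini-Hochberg adjustment over all 25190 genes, edgeR gave no gene an adjusted p under 0.05 in any of the 4 comparisons, and the smallest value for a member gene was 0.643. Pool 1 and Pool 2 were compared with the same Control libraries, so their values are given side by side only. Signs were mixed: 5 of the 10 genes were higher in Pool 1 than in Control, 6 in Pool 2 than in Control, and 3 in Control than in Vehicle. Nothing in the labels says that the libraries of a group come from separate animals, so the p-values measure the spread between these libraries.

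**Figure D2:**
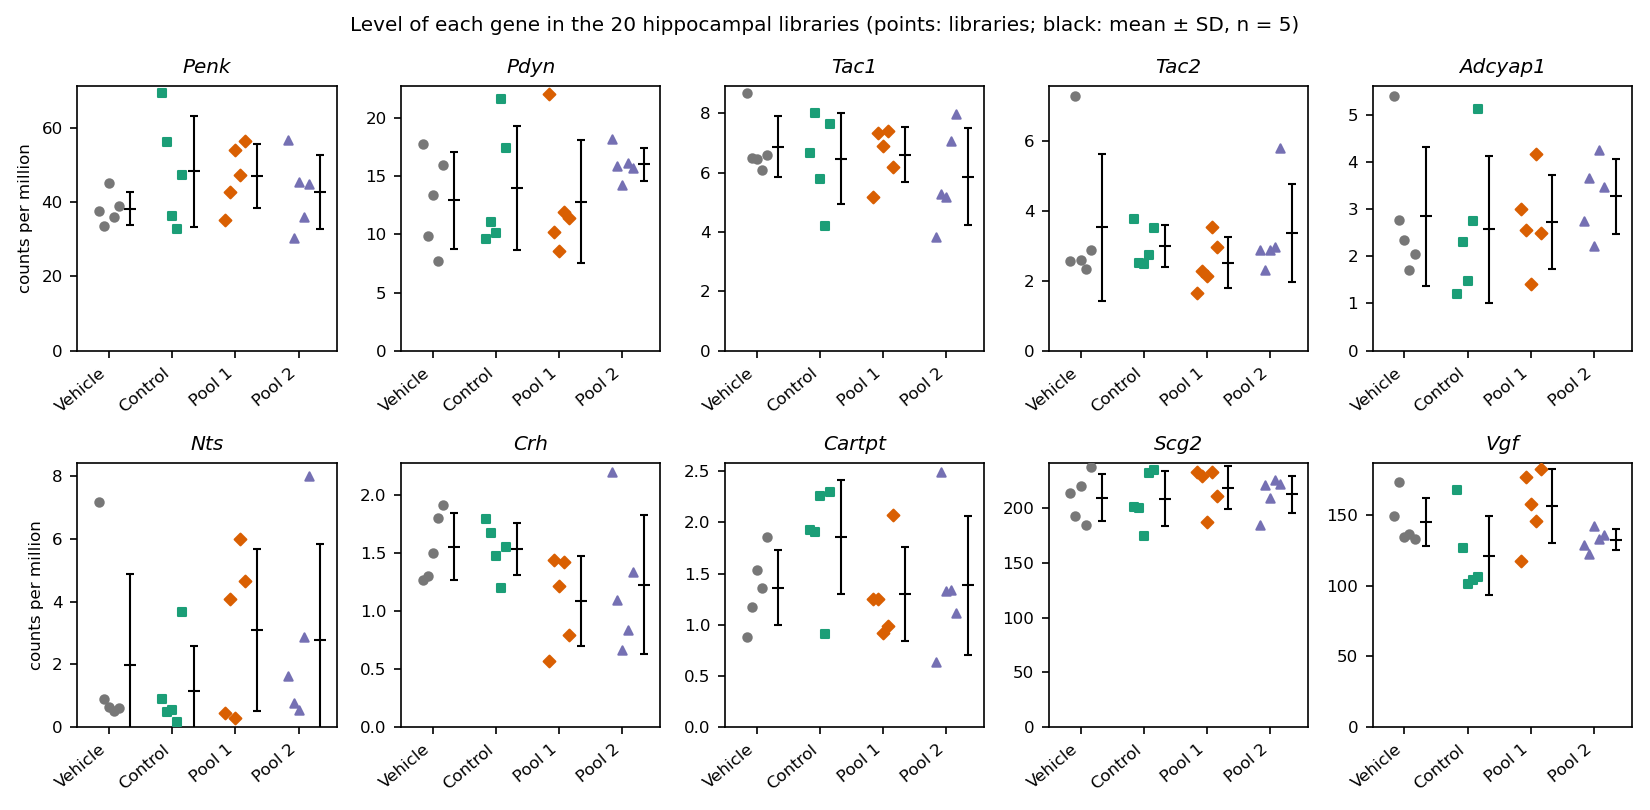
CPM of each gene in the 20 libraries by group, with the mean and SD of the 5 libraries of a group in black and bars cut at 0. For 9 of the 10 genes no comparison passed the call rule. Vgf is lower in 4 of 5 Control libraries than in all Vehicle libraries.

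Vgf (ENSMUSG00000037428.14, chr5:137026392-137033351, plus strand; all positions are on GRCm38) encodes a granin-related precursor that is induced by neurotrophins and neuronal activity. Its level in Vehicle mice was 149, 173, 134, 137 and 133 CPM. In Control mice it was 167, 127, 101, 104 and 106 CPM, so that 4 of 5 libraries lay below every Vehicle library. Pool 1 mice had 118, 177, 158, 146 and 183 CPM, 2 of them above every Control library, and Pool 2 mice had a narrow 129, 122, 142, 133 and 136 CPM. The groups thus overlapped, with Control lowest. In Pool 1 against Control the log2 fold change was 0.37 (SE 0.13, 95% interval 0.10 to 0.63) with an edgeR p of 0.00828 and an adjusted p of 0.917. The exact two-sided permutation test gave p = 0.0794, where 5 against 5 libraries allow 0.00794 at best. All 28 alternative settings kept the call, with log2 fold changes between 0.30 and 0.51. Fits that left out only Vehicle or Pool 2 libraries kept every Control and Pool 1 library, so they could change this comparison little. Both ends of that range came from fits without a Control or a Pool 1 library. In Control against Vehicle, Vgf had a log2 fold change of -0.26, with an edgeR p of 0.0493, an adjusted p of 0.750 and a permutation p of 0.0873, and was under the fold threshold. Without Control replicate 1 it was -0.41 and was called, at an edgeR p of 0.0013 and an adjusted p of 0.936. Pool 2 against Control gave 0.13 (95% interval -0.13 to 0.39, adjusted p 0.874 by edgeR), and Pool 2 against Pool 1 gave -0.24 (95% interval -0.50 to 0.03, adjusted p 0.643). Without Pool 1 replicate 1 the last value was -0.32 and was called, at an edgeR p of 0.0154 and an adjusted p of 0.450. In the test of any difference among the 4 groups, Vgf alone of the 10 genes had an unadjusted p under 0.05, at 0.0445, with an adjusted p of 0.628; 7.86% of all genes did.

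Markers of hippocampal fields moved with Vgf. The summed level of 5 CA1 pyramidal markers (Wfs1, Fibcd1, Mpped1, Pou3f1 and Man1a) ran from 520 to 1048 CPM in Control, with a median of 761, and from 471 to 1250 CPM in Pool 1, with a median of 1038. None of the 5 was called in Pool 1 against Control, although their median log2 fold change was 0.31 against -0.01 over all genes. Over the 20 libraries the log2 level of Vgf correlated with that of the CA1 list (Pearson's r = 0.62, permutation p = 0.00348, adjusted p = 0.0451; Spearman's rho = 0.66, p = 0.00199). It ran against that of 6 dentate granule cell markers (r = -0.65, permutation p = 0.00194, adjusted p = 0.0349; rho = -0.62, p = 0.0042). Without the 2 libraries farthest from the median of the list, r was 0.53 and -0.56. Within groups, r was 0.63 and -0.71. Genes of other lists were also called in Pool 1 against Control. The summed level of 4 transcripts without a poly(A) tail or with ribosomal RNA-like reads (Gm42418, Gm26917, Lars2 and Rn7sk) ran from 1720 to 13789 CPM in Pool 1, with a median of 6100, and from 558 to 1815 CPM in Control, with a median of 987. All 4 were called higher in Pool 1, Gm42418 with a log2 fold change of 2.64 (adjusted p 0.917 by edgeR). All 4 are also in the study's own list of genes upregulated in both pools, which came from these libraries. Their calls are therefore no separate result. Over the 20 libraries Vgf and this list had r = 0.23 (permutation p = 0.318, adjusted p = 0.593; rho = 0.23, p = 0.321), and r = -0.05 within groups. Of 5 astrocyte markers Gfap was called lower in Pool 1, at 417 ± 38.2 against 584 ± 142 CPM (SD, n = 5; log2 fold change -0.49, adjusted p 0.917), and Vgf had r = -0.24 with that list (permutation p = 0.316, adjusted p = 0.593; rho = -0.33, p = 0.158). The part of these lists in the Vgf difference was not tested. Adjustment was over 180 relations, of 10 genes with 18 gene lists, and 16 had an adjusted p under 0.05 by Pearson's r. Of these, 11 also passed by Spearman's rho. Adjusted permutation p for rho was over 0.05 for Vgf with the dentate markers (0.0504) and Crh with those 4 transcripts (0.0576). It was also over 0.05 for Pdyn with peptide processing genes (0.0703) and other neuropeptides (0.0743), and for Tac2 with medial habenula markers (0.226).

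Scg2 (ENSMUSG00000050711.7, chr1:79434669-79440120, minus strand) encodes secretogranin II and was the steadiest of the set. Vehicle mice had 213, 193, 220, 184 and 237 CPM and Control mice 201, 199.7, 175, 232 and 235 CPM. Pool 1 mice had 233, 229, 187, 233 and 211 CPM, and Pool 2 mice 185, 221, 209, 226 and 222 CPM. All groups covered the same range. The log2 fold change was 0.07 in Pool 1 against Control (95% interval -0.12 to 0.26) and 0.03 in Pool 2 against Control (95% interval -0.17 to 0.22), so the intervals reach neither 0.3 nor -0.3. The 5 other granins (Chga, Chgb, Scg3, Scg5 and Pcsk1n) gave 0 calls in any of the 4 comparisons.

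Penk (ENSMUSG00000045573.9, chr4:4133531-4138819, minus strand) encodes the precursor of the enkephalins. Vehicle mice had 37.6, 33.6, 45.2, 36.0 and 38.8 CPM. Control mice were more spread, with 69.2, 56.2, 36.1, 32.8 and 47.1 CPM. Pool 1 had 35.1, 42.5, 53.9, 47.3 and 56.4 CPM, and Pool 2 had 56.6, 30.4, 45.4, 35.9 and 44.9 CPM. Of the Control libraries 3 were above all Vehicle libraries and 1 was below them. The log2 fold change in Control against Vehicle was 0.34 (SE 0.19, 95% interval -0.06 to 0.73, edgeR p 0.0881, adjusted p 0.768, permutation p 0.222). It was -0.04 in Pool 1 and -0.18 in Pool 2 against Control, with adjusted p of 0.995 and 0.888. Without Control replicate 3 or replicate 4 the difference from Vehicle was 0.42 or 0.46 and was called, at an edgeR p of 0.0381 or 0.0214 and an adjusted p of 0.633 or 0.477.

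Pdyn (ENSMUSG00000027400.11, chr2:129686565-129699844, minus strand) encodes the precursor of the dynorphins. In Vehicle mice it was 17.8, 9.87, 13.4, 7.72 and 15.96 CPM, and in Control mice 9.61, 11.03, 10.1, 21.6 and 17.5 CPM. Pool 1 mice had 22.0, 10.2, 8.59, 11.9 and 11.4 CPM, with replicate 1 apart from the other 4. Pool 2 mice were even, with 18.2, 15.9, 14.2, 16.2 and 15.7 CPM. The coefficient of variation was 8.92% in Pool 2 and 32.3 to 41.4% in the other groups. No comparison was called: the log2 fold change was 0.20 in Pool 2 against Control (adjusted p 0.923) and 0.32 in Pool 2 against Pool 1 (95% interval -0.24 to 0.88, adjusted p 0.837). Without Pool 1 replicate 1, which also had the highest dentate granule cell markers, the last value was 0.61 and was called, at an edgeR p of 0.0203 and an adjusted p of 0.462.

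**Figure D3:**
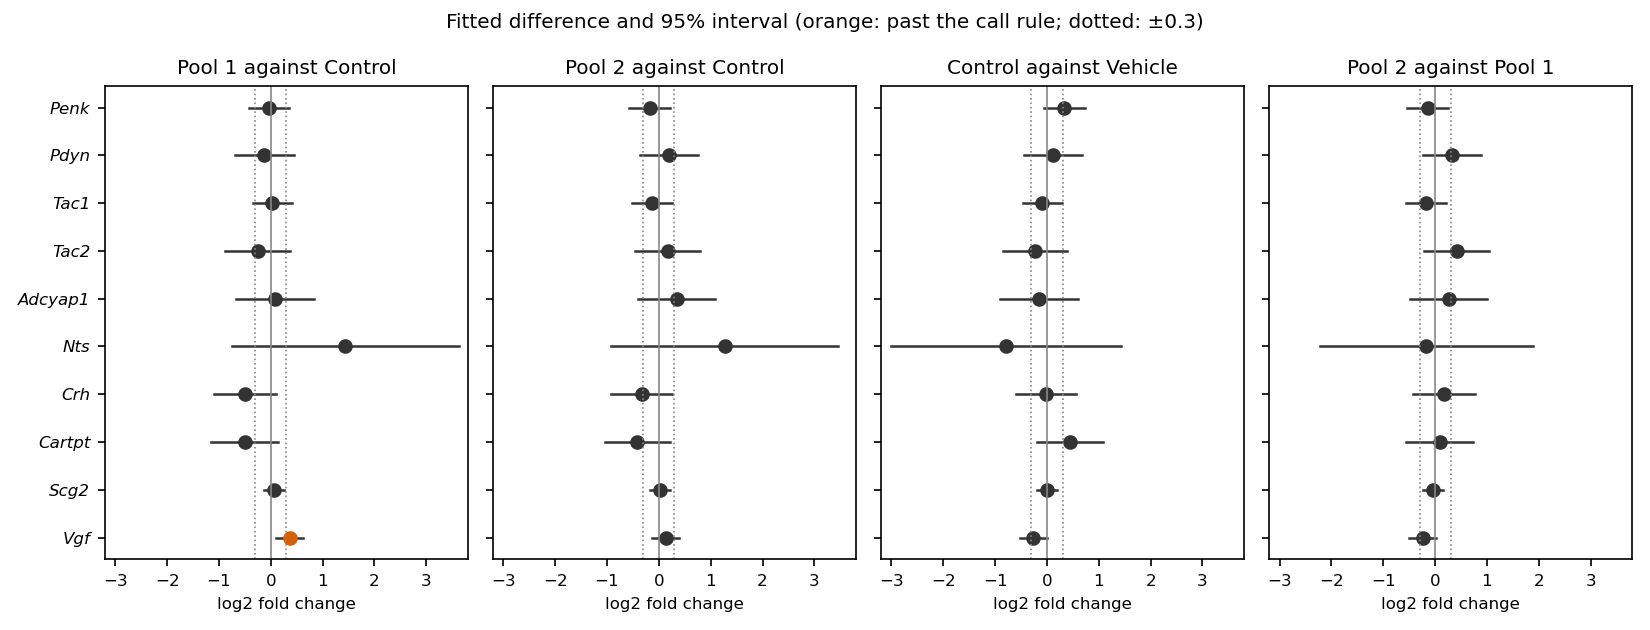
Log2 fold change of each gene in the 4 comparisons from the edgeR fit, with its 95% interval and dotted lines at -0.3 and 0.3. Vgf in Pool 1 against Control, in orange, is the only value past the call rule, and the Nts intervals are the widest.

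Among the tachykinins, Tac1 (ENSMUSG00000061762.12, chr6:7554879-7565834, plus strand), the precursor of substance P and neurokinin A, had group means of 6.87 ± 1.03, 6.47 ± 1.53, 6.60 ± 0.936 and 5.87 ± 1.65 CPM (SD, n = 5) in Vehicle, Control, Pool 1 and Pool 2. Its log2 fold changes lay between -0.17 and 0.03 over the 4 comparisons. Tac2 (ENSMUSG00000025400.11, chr10:127724478-127731768, plus strand), the precursor of neurokinin B, was near 3 CPM in most libraries. Vehicle mice had 2.57, 7.27, 2.58, 2.33 and 2.89 CPM and Pool 2 mice 2.88, 2.30, 2.87, 2.96 and 5.80 CPM, each with a single library far above the rest. Control mice had 3.76, 2.499, 2.486, 2.74 and 3.49 CPM and Pool 1 mice 1.66, 2.29, 2.14, 3.53 and 2.95 CPM. The largest Tac2 difference was 0.42 on the log2 scale in Pool 2 against Pool 1 (95% interval -0.21 to 1.04, adjusted p 0.783 by edgeR).

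Nts (ENSMUSG00000019890.4, chr10:102481756-102490486, minus strand), the neurotensin precursor, was the most variable gene. Control mice had 20, 12, 12, 4 and 83 counts (0.894, 0.476, 0.552, 0.159 and 3.67 CPM). Pool 1 mice had 11, 91, 6, 139 and 112 counts and Pool 2 mice 36, 20, 13, 69 and 186. Vehicle mice had 170, 21, 16, 12 and 13 counts. Every group therefore held at least 1 library with over 80 counts and at least 2 with 21 or fewer. The log2 fold change was 1.44 in Pool 1 against Control (SE 1.04, 95% interval -0.75 to 3.63) and 1.27 in Pool 2 against Control (SE 1.04, 95% interval -0.92 to 3.46), with adjusted p of 0.921 and 0.839. Without Control replicate 5 the Pool 1 value was 2.58 and passed the call rule at an edgeR p of 0.0386, with an adjusted p of 0.878. That fit was the only 1 of 28 alternatives to pass. Adcyap1 (ENSMUSG00000024256.7, chr17:93199017-93206537, plus strand) encodes the peptide PACAP, and its group means were 2.85 ± 1.47, 2.57 ± 1.56, 2.73 ± 1.00 and 3.27 ± 0.802 CPM (SD, n = 5) in Vehicle, Control, Pool 1 and Pool 2. Its log2 fold change was 0.09 in Pool 1 and 0.35 in Pool 2 against Control, with adjusted p of 0.995 and 0.886. Without Control replicate 5 the Pool 2 value was 0.75, at an edgeR p of 0.0332 and an adjusted p of 0.575.

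Crh (ENSMUSG00000049796.4, chr3:19693401-19695396, minus strand), the corticotropin-releasing hormone gene, had 14 to 48 counts per library. Vehicle mice had 1.26, 1.30, 1.49, 1.80 and 1.91 CPM and Control mice 1.79, 1.67, 1.47, 1.19 and 1.55 CPM. Pool 1 mice had 0.566, 1.43, 1.21, 1.42 and 0.789 CPM, and Pool 2 mice 2.19, 1.09, 0.667, 0.835 and 1.33 CPM. In Pool 1 against Control, 2 of 5 libraries were below all Control libraries and the log2 fold change was -0.50 (SE 0.29, 95% interval -1.10 to 0.09, edgeR p 0.094, adjusted p 0.917, permutation p 0.0556). Of the Pool 2 libraries 3 were below and 1 was above all Control libraries, and the log2 fold change was -0.33 (SE 0.28, adjusted p 0.847). Without Pool 2 replicate 1 that value was -0.64 at an edgeR p of 0.0256, with an adjusted p of 0.907. This library had the highest microglial and astrocyte sums, the latter 2904 CPM, and the lowest inhibitory interneuron sum, 697 CPM. Crh ran against the same 4 transcripts without a poly(A) tail or with ribosomal RNA-like reads (r = -0.61, permutation p = 0.00337, adjusted p = 0.0451; rho = -0.60, p = 0.00608). That r was -0.51 without Control replicate 2 and Pool 1 replicate 1, and -0.47 within groups. All 4 of those transcripts were called higher in both pools than in Control. They are in the study's own list from these libraries, so these calls are no separate result. Their part in the Crh values was not tested.

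Cartpt (ENSMUSG00000021647.7, chr13:99898489-99901091, minus strand) encodes the cocaine- and amphetamine-regulated transcript peptide and had 14 to 64 counts per library. Its group means were 1.36 ± 0.369, 1.86 ± 0.559, 1.30 ± 0.460 and 1.38 ± 0.682 CPM (SD, n = 5) in Vehicle, Control, Pool 1 and Pool 2. Of the 5 Control libraries 4 lay above all Vehicle libraries, and Control replicate 4 lay at 0.914 CPM. The log2 fold change was 0.45 in Control against Vehicle, -0.51 in Pool 1 against Control and -0.41 in Pool 2 against Control, with adjusted p of 0.839, 0.917 and 0.815. Without Control replicate 4, the values against Vehicle and in Pool 1 were 0.63 (edgeR p 0.0494) and -0.68 (edgeR p 0.0337). Without Pool 2 replicate 2 the Pool 2 value was -0.74 (edgeR p 0.0228), and without Pool 1 replicate 5 the Pool 1 value was -0.74 (edgeR p 0.0292). Adjusted p in these fits was between 0.554 and 0.771.

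Across libraries, 8 of the 10 members varied with the summed level of at least 1 gene list (plots of members against markers). This count is by Pearson's r, at an adjusted permutation p under 0.05. Libraries share depth and dissection, so the relations describe these 20 libraries. Pdyn rose with the 6 dentate granule cell markers Prox1, Dsp, C1ql2, Tdo2, Lct and Plk5 (r = 0.87, permutation p = 1e-05, the smallest that 100000 resamples can give, adjusted p = 9e-04; rho = 0.85, p = 2e-05). Without the 2 farthest libraries, Control replicate 4 and Pool 1 replicate 1, r was 0.81, and within groups it was 0.85. Those libraries had the highest dentate sums, 662 and 692 CPM, and the highest Pdyn levels. The dentate sums of the 5 Pool 2 libraries were 395 to 589 CPM, against 253 to 662 in Control and 238 to 692 in Pool 1.

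Nts followed 7 neocortical markers, Rorb, Cux2, Fezf2, Tshz2, Scnn1a, Rspo1 and Myl4, whose sum ran from 70.6 to 155 CPM (r = 0.89, permutation p = 1e-05, adjusted p = 9e-04; rho = 0.85, p = 1e-05). Without Vehicle replicate 1 and Pool 2 replicate 5, r was 0.84, and within groups it was 0.89. In the 7 libraries with Nts above 2 CPM the neocortical sum was 105 to 155 CPM, and in the other 13 it was 70.6 to 109 CPM. The ranges overlap: Vehicle replicate 3 had the 109 CPM with only 0.646 CPM of Nts. Adcyap1 also followed this list (r = 0.75, permutation p = 1.4e-04, adjusted p = 0.00504; rho = 0.75, p = 2e-04), with r = 0.69 without the same 2 libraries and 0.73 within groups. Nts ran against the 4 CA3 pyramidal markers (r = -0.72, permutation p = 4.7e-04, adjusted p = 0.0096; rho = -0.71, p = 6.7e-04), with r = -0.63 without the 2 farthest libraries. The part of tissue content in the Nts and Adcyap1 values was not tested.

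**Figure D4:**
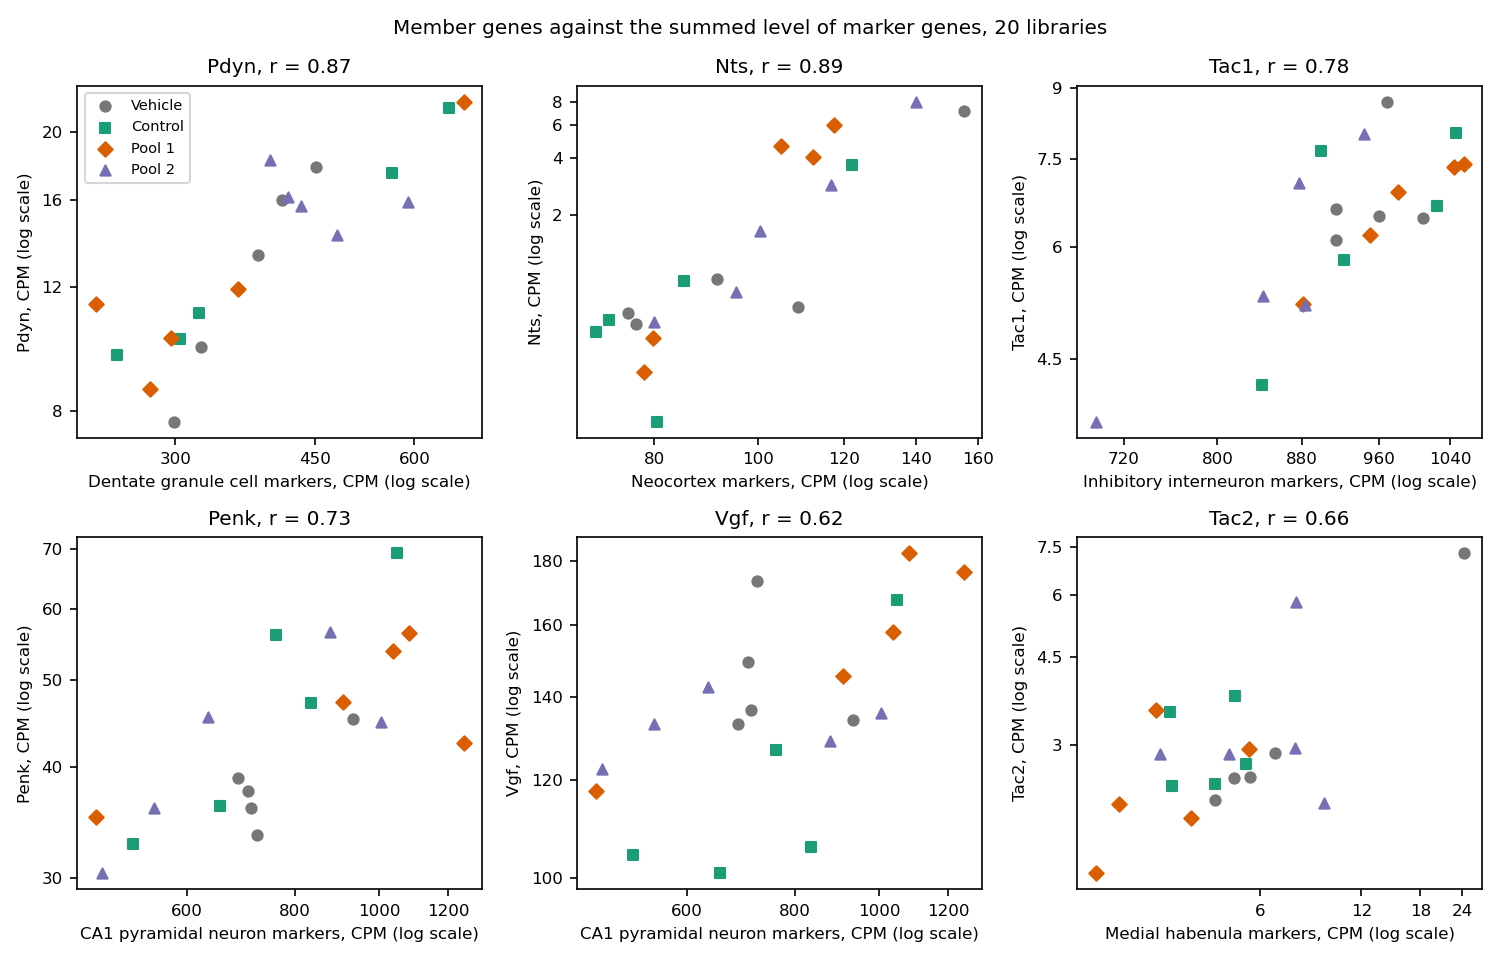
Level of 6 members against the summed level of a marker list, both in CPM on logarithmic axes, with 1 point per library and the groups by colour and shape. Libraries of every group lie along the same rise for Pdyn (r = 0.87) and Nts (r = 0.89), and r for Tac2 is 0.22 without Vehicle replicate 2 and Pool 1 replicate 1 together.

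Tac1 rose with 10 inhibitory interneuron markers (r = 0.78, permutation p = 9e-05, adjusted p = 0.00405; rho = 0.66, p = 0.00197), with r = 0.65 without Pool 1 replicate 4 and Pool 2 replicate 1 and 0.79 within groups. Penk rose with the CA1 list (r = 0.73, permutation p = 2.6e-04, adjusted p = 0.00694; rho = 0.73, p = 4e-04), with r = 0.81 without the 2 farthest libraries and 0.78 within groups. Tac2 was related to 5 medial habenula markers, Chrnb4, Chrna3, Pou4f1, Gpr151 and Gng8 (r = 0.66, permutation p = 0.0029, adjusted p = 0.0451), but the rank correlation was 0.44 (p = 0.0553). Without Vehicle replicate 2 and Pool 1 replicate 1, r was 0.22, so that relation rests on those libraries. Vehicle replicate 2 had 24.2 CPM of habenular markers, against 1.94 to 9.27 CPM in the other 19 libraries. Pool 2 replicate 5, the other library with high Tac2, had 7.69 CPM. Penk also rose with 10 genes of peptide processing and dense core vesicles (r = 0.73, adjusted permutation p = 0.00694, rho = 0.77). Penk ran against 7 thalamic markers (r = -0.60, adjusted permutation p = 0.0496, rho = -0.67). Pdyn ran against the processing genes (r = -0.62, adjusted permutation p = 0.0451, rho = -0.58). Adcyap1 ran against the 5 other granins (r = -0.71, adjusted permutation p = 0.0096, rho = -0.72). Scg2 and Cartpt had no relation with an adjusted p under 0.05 among the 18 lists.

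**Figure D5:**
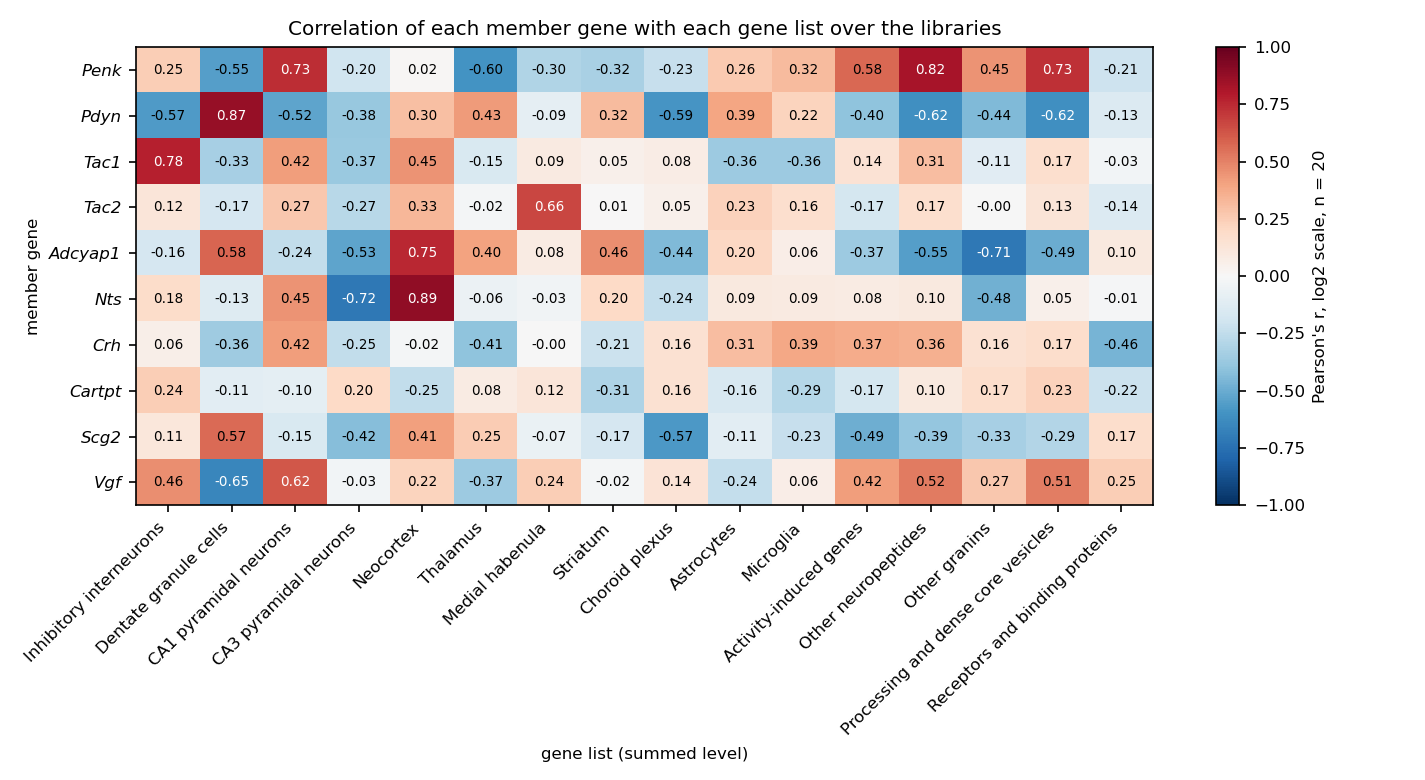
Pearson's r between the log2 level of each member (rows) and the log2 summed level of 16 gene lists (columns) over the 20 libraries, from blue (negative) to red (positive). Pdyn with dentate granule cells, Nts with neocortex and Penk with other neuropeptides have the largest values, 0.87, 0.89 and 0.82.

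The members did not form a single group. Of the 45 pairs of members, 0 had a correlation with an adjusted p under 0.05 by permutation over the 20 libraries. The strongest were Adcyap1 with Nts (r = 0.63, permutation p = 0.00281, adjusted p = 0.0604; rho = 0.57, p = 0.0103) and Adcyap1 with Pdyn (r = 0.63, permutation p = 0.00363, adjusted p = 0.0604; rho = 0.65, p = 0.00289). Pdyn and Vgf ran in opposite directions (r = -0.52, permutation p = 0.0183, adjusted p = 0.137; rho = -0.54, p = 0.0155). The opioid precursors Penk and Pdyn had r = -0.31.

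For each member, the 3 protein-coding genes with the most similar log2 CPM over the 20 libraries were named, among genes with a mean count of at least 50, as a description without a test. Pdyn was most like Jun (r = 0.94), which encodes an AP-1 subunit, the glutamate receptor gene Grm2 (0.92) and Fam163b (0.91). Nts was most like Nxph3 (0.95), Cdh22 (0.94) and Ldb2 (0.94), and Penk was most like Psd (0.92), Ttc9b (0.91) and Inka1 (0.91). Adcyap1 was most like Gfra1 (0.88), a receptor for GDNF, Brinp3 (0.84) and St3gal1 (0.84). Vgf was most like Sfxn3 (0.83), Eml2 (0.83) and Ache (0.82), the acetylcholinesterase gene, and Tac1 was most like Ankrd34b (0.82), Serpini1 (0.81) and Nap1l5 (0.81). Scg2 was nearest to Pnma3, Susd1 and Strada (0.80 to 0.81), and Crh to Rmi1, Ppp2r1b and Ivns1abp (0.74 to 0.82). Tac2 and Cartpt had the weakest partners: Cdh20, Olig2 and Itpripl2 for Tac2 (0.64 to 0.69), and Fam136a, Pdhb and Eipr1 for Cartpt (0.66 to 0.69). The 3 Tac2 values were 0.55, 0.42 and 0.44 without Vehicle replicate 2 and Pool 2 replicate 5. Without the 2 libraries farthest from the member's median, Crh with Rmi1 fell to 0.69, and Scg2 with Strada and Tac1 with Ankrd34b to 0.68. The Penk, Pdyn and Nts values stayed at 0.87 or above, and Cartpt with Pdhb rose to 0.80.

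The other genes of the peptide pathway gave few calls. Of 51 other neuropeptide genes 37 were in the table and 17 had a mean above 1 CPM. In Pool 1 against Control 2 of the 37 were called higher and 0 lower. Pomc, the precursor of ACTH and beta-endorphin, was 1.99 ± 2.03 CPM in Pool 1 and 0.939 ± 0.277 CPM in Control (SD, n = 5; log2 fold change 1.09, adjusted p 0.917 by edgeR), but 138 of its 237 Pool 1 counts came from replicate 1. Ucn2, the urocortin 2 gene, had 9 counts over the 5 Pool 1 libraries, 12 in Pool 2 and 1 in Control, which is too few to give a size. Against Control, Pool 2 had Ucn2 and endothelin 1 (Edn1) called higher and Calcb, a calcitonin gene-related peptide gene, called lower. Edn1 was 2.75 ± 0.501 CPM in Pool 2, 1.66 ± 0.741 in Control, 1.66 ± 0.398 in Pool 1 and 1.86 ± 0.260 in Vehicle (SD, n = 5), with a log2 fold change of 0.73 against Control (adjusted p 0.486) and 0.73 against Pool 1 (adjusted p 0.380). Calcb had 7 counts over the Pool 2 libraries and 24 in Control.

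In Control against Vehicle, the natriuretic peptide gene Nppc was called higher, at 2.80 ± 0.717 against 1.98 ± 0.337 CPM (SD, n = 5; log2 fold change 0.50, adjusted p 0.739 by edgeR). Vasopressin (Avp) was called lower, with 11 counts over the Control libraries and 36 in Vehicle, and secretin (Sct) was called lower with 1 and 8 counts. In Pool 2 against Pool 1, Edn1 was again called higher and Pomc was called lower, and relaxin 3 (Rln3) was called higher with 13 and 1 counts. All these genes apart from Edn1, Nppc and Pomc had at most 16 counts in any library. Ucn2, Calcb, Avp, Sct and Rln3 had mean counts under 10, the level below which the study's methods exclude genes. Ucn2 is nonetheless in the study's list of genes upregulated in both pools. That list came from these libraries, so the Ucn2 calls are no separate result.

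The machinery for peptide processing and storage gave 0 calls among 10 genes in each comparison with Control and in Control against Vehicle. In Pool 2 against Pool 1 the vesicle membrane gene Ptprn2 was called lower, at 244 ± 41.0 against 312 ± 30.1 CPM (log2 fold change -0.36, adjusted p 0.362), and the protease gene Ctsl was called higher, at 98.7 ± 16.4 against 79.9 ± 9.06 CPM (SD, n = 5; log2 fold change 0.30, adjusted p 0.451 by edgeR). Of 15 receptors and binding proteins, Vipr2, a receptor for VIP and PACAP, was the only one called. It was higher in Pool 2 (4.22 ± 4.11 CPM) than in Control (1.64 ± 1.49; log2 fold change 1.36, adjusted p 0.601) and Pool 1 (0.944 ± 0.174; log2 fold change 2.15, adjusted p 0.299). Its Pool 2 libraries ran from 0.731 to 10.5 CPM, and the highest, replicate 4, also had the highest sum of 7 thalamic markers, 556 CPM against 102 to 327 in the other 19 libraries. Of the 7 thalamic markers 4 were called higher in Pool 2 than in Control and 6 than in Pool 1. The part of thalamic tissue in this value was not tested. The opioid, tachykinin, neurotensin and CRH receptor genes gave 0 calls in the 4 comparisons.

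Taking these 4 pathway lists together, 2 of 67 genes (2.99%) were called higher and 0 lower in Pool 1 against Control, and 3 (4.48%) higher and 1 (1.49%) lower in Pool 2 against Control. In Control against Vehicle 1 (1.49%) was higher and 2 (2.99%) lower, and in Pool 2 against Pool 1 4 (5.97%) were higher and 2 (2.99%) lower. These shares can be set beside the 1.48%, 1.99%, 5.2%, 1.01%, 1.7%, 3.41%, 5.66% and 1.16% of all genes given above. Of 21 activity-induced genes, which include Fos, Arc, Npas4 and Bdnf, Inhba, which encodes an activin subunit, was the only one called. It was lower in both pools, at 10.7 ± 2.73 CPM in Pool 1 and 10.4 ± 0.872 in Pool 2 against 13.5 ± 1.71 CPM in Control (SD, n = 5), with log2 fold changes of -0.34 and -0.37 and adjusted p of 0.917 and 0.580 by edgeR. Inhba is in the study's own list of genes downregulated in both pools, which came from these libraries. Its calls are therefore no separate result, and both pools were compared with the same Control libraries.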

How the data were processed

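Reads came from strand-specific poly(A) libraries sequenced single-end, in 2 rounds per the labels. The authors aligned them to GRCm38/mm10 with STAR and counted reads per gene on GENCODE M20. They deposited raw counts of 25190 genes, without normalization, after discarding genes whose counts summed to under 10. FastQC 0.11.5 is named in the submitters' processing notes. Each of the 20 count columns was matched to its sample by title.

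Counts were scaled by TMM and tested with edgeR 4.0.16 (quasi-likelihood, robust; R 4.3.3) in 1 fit of all 25190 genes and 20 libraries. A call needed a log2 fold change of 0.3 or more in size with an unadjusted p below 0.05, the thresholds of the study. The study also left genes with a mean normalized count under 10 out of its lists, which was run here as an alternative and not in the main test. The p-values were adjusted by Benjamini-Hochberg over all genes. CPM are TMM-scaled, and log2 CPM has a prior count of 2. Single genes were also compared by an exact permutation test of group means, and relations over libraries by 100000 permutations with Python 3.11.15. Genes were named by rule: the 10 members, pathway genes past the call rule (at most 4 a list and comparison) and the 3 most similar genes of each member. Inhba and the marker genes were named in addition. The members and lists were chosen with earlier results of these data known. Alternatives were DESeq2 1.42.0, its size factors in edgeR, 2 filters on low counts, the default spread, the 2 groups alone, a replicate block, and leaving out libraries. The fits were tested on simulated counts. Stranded counting keeps antisense reads apart, but reads shared by overlapping genes are not resolved. Deviations of same-numbered libraries had a median correlation of 0.029, against -0.015 for other pairs, and 10 of 30 same-numbered pairs were over 0.1. No label says what the numbers mark, so they were not taken as pairs. Gene names come from the table and promoters from RefSeq on GRCm38.p6. Promoters of Penk, Crh and Vgf were not used here.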

Additional observations from a re-analysis of the deposited data

Results flagged for a closer look

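In 40 sets of 5 libraries (10 genes in 4 groups), Dixon's criterion marked 1 library as far from the other 4 in 9 sets. The marks fell on 7 different libraries. For independent sets of normally distributed values the criterion marks about 1 in 20. CPM were used here without logs and the sets share libraries, so no excess over chance can be read from the 9 marks. Vehicle replicate 1 was marked for 3 genes, with 7.16 CPM of Nts against 0.527 to 0.909 CPM in the other Vehicle libraries, 5.39 CPM of Adcyap1 against 1.71 to 2.77 CPM, and 8.68 CPM of Tac1 against 6.10 to 6.61 CPM. It also had the highest sum of neocortical markers, 155 CPM. Its sum of 7 striatal markers was the highest too, at 55.3 CPM, where no other library was above 37.2 CPM. Control replicate 5 was marked for Nts, at 3.67 CPM against 0.159 to 0.894 CPM. Tac2 was marked in Vehicle replicate 2, at 7.27 CPM against 2.33 to 2.89 CPM, and in Pool 2 replicate 5, at 5.80 CPM against 2.30 to 2.96 CPM. Pdyn was marked in Pool 1 replicate 1, at 22.0 CPM against 8.59 to 11.9 CPM. Cartpt was marked low in Control replicate 4, at 0.914 CPM against 1.90 to 2.30 CPM, and high in Pool 1 replicate 5, at 2.08 CPM against 0.922 to 1.26 CPM. The part of tissue content in these values was not tested.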

How the results depend on the processing

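The Vgf call in Pool 1 against Control was made in all 28 alternatives (p from 1.34e-04 to 0.03, adjusted p from 0.627 to 0.999). Those that left out only Vehicle or Pool 2 libraries could change it little. The number of members called ran from 1 to 2 in Pool 1 against Control, 0 to 1 in Pool 2 against Control, 0 to 2 in Control against Vehicle and 0 to 2 in Pool 2 against Pool 1 when single libraries were left out, and the number with any difference among groups from 0 to 1. With a replicate block the log2 fold change of Vgf was 0.37 (edgeR p 0.0111), the calls were the same, and 0 members differed among the 4 groups. That last count was also 0 with a mean count of at least 10 and without Vehicle replicate 4 and Pool 2 replicate 1. Without those 2 libraries Crh was called in Pool 2 against Control, which made 1 call, and 1 member passed the exact permutation test.

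Some differences changed sign when single libraries were left out, among them Nts in Control against Vehicle, at -0.79 with all libraries. In Pool 1 against Control the log2 fold change ran from -0.15 to 0.13 for Penk, -0.41 to 0.0918 for Pdyn, -0.0941 to 0.12 for Tac1 and -0.12 to 0.49 for Adcyap1. In Pool 2 against Control it ran from -0.12 to 0.28 for Tac2 and -0.0292 to 0.0744 for Scg2. In Control against Vehicle it ran from -0.10 to 0.26 for Pdyn, -0.18 to 0.0421 for Tac1, -0.35 to 0.21 for Tac2, -0.56 to 0.22 for Adcyap1, -1.93 to 0.77 for Nts, -0.0777 to 0.0684 for Crh and -0.0531 to 0.0504 for Scg2. In Pool 2 against Pool 1 it ran from -1.08 to 0.22 for Nts, -0.14 to 0.33 for Crh, -0.23 to 0.33 for Cartpt and -0.0915 to 0.01 for Scg2. Without Vehicle replicate 4 and Pool 2 replicate 1 the value was -0.03 for Pdyn and 0.04 for Crh in Control against Vehicle, and -0.14 for Crh and 0.0052 for Scg2 in Pool 2 against Pool 1. In Control against Vehicle, edgeR's own filter on low counts gave 0.000842 for Crh and 0.0133 for Scg2, and the fit of these 2 groups alone gave 0.0050 for Scg2. The other 23 of 40 values kept their sign in all 28 alternatives. The cause of these changes was not tested. Calls over all 25190 genes were 374 higher and 502 lower in Pool 1 against Control, 1311 and 255 in Pool 2 against Control, 427 and 858 in Control against Vehicle, and 1426 and 292 in Pool 2 against Pool 1. With a mean count of at least 10, which leaves 16644 genes to test, they were 155 and 247, 852 and 117, 239 and 556, and 979 and 154. With edgeR's own filter (17293 genes) they were 178 and 248, 788 and 172, 338 and 483, and 928 and 225. Leaving out single libraries gave 313 to 481 and 397 to 768, 835 to 1436 and 226 to 496, 259 to 793 and 659 to 1123, and 924 to 1635 and 209 to 432. Without Vehicle replicate 4 and Pool 2 replicate 1, 852 genes were called higher in Pool 2 than in Control. With 14 to 64 counts per library for Crh and Cartpt, depth limits their precision.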

Other observations

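The abundant neuropeptide transcripts of the hippocampus outside the member genes showed the same overlap between groups. Cck, which encodes cholecystokinin, was 247 ± 48.8 CPM in Vehicle, 310 ± 121 in Control, 289 ± 68.6 in Pool 1 and 259 ± 58.4 in Pool 2 (SD, n = 5). Sst, the somatostatin gene, was 167 ± 9.28 CPM in Vehicle but 172 ± 59.8 in Control, 181 ± 51.9 in Pool 1 and 143 ± 34.4 in Pool 2, and its lowest library was at 93.7 CPM. Npy, the neuropeptide Y gene, was 49.3 ± 7.03, 49.6 ± 13.8, 45.4 ± 4.23 and 40.8 ± 8.50 CPM in the same order. None of the 3 passed the call rule in any of the 4 comparisons. Cck and Sst, with overall means of 276 and 166 CPM, made up most of the summed level of the 37 other neuropeptide genes measured. That sum ran from 360.2 to 854 CPM over the libraries. Penk rose with it (r = 0.82, permutation p = 3e-05, adjusted p = 0.0018; rho = 0.80, p = 2e-05; r = 0.72 without Control replicate 1 and Pool 2 replicate 2), and Pdyn ran against it (r = -0.62, permutation p = 0.00351, adjusted p = 0.0451; rho = -0.57, p = 0.00908; r = -0.61 without the same libraries).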
